A study of Arabidopsis thaliana with 8 samples.

Results

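Transcript levels of 10 flavonol biosynthesis genes were followed in roots of *Arabidopsis thaliana* seedlings with and without extracellular ATP. The 10 genes were taken by locus identifier from 33544 genes listed in the tables, and they are *CHS* (AT5G13930), *CHI* (AT3G55120), *CHIL* (AT5G05270), *F3H* (AT3G51240), *F3'H* (AT5G07990), *FLS1* (AT5G08640), *4CL3* (AT1G65060), *UGT78D2* (AT5G17050), *MYB12* (AT2G47460) and *MYB111* (AT5G49330). The 4 conditions were *gpa1-2* roots treated with ATP for 60 min, *gpa1-2* roots taken before ATP, WS roots treated with ATP for 60 min and WS roots taken before ATP. WS is the wild type ecotype, and *gpa1-2* is a null mutant of the heterotrimeric G protein α subunit (Gα), the only mutant allele in the tables. All seedlings were 4 days old per the labels and grew on 1/2 MS medium, and the ATP concentration is not in the labels. The labels give 2 biological replicates in each condition, 8 samples in all, but the tables hold 1 value per gene and condition. Hence no value below has a replicate error, no test across replicates was possible, and each difference compares these 4 values only. Whether a value joins both replicates or comes from 1 library is not stated in the sources used here. The untreated roots were sampled before treatment, so effects of ATP, of the transfer to new medium and of 60 min of time cannot be told apart.

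Flavonols are phenolic compounds made from phenylalanine. The general phenylpropanoid enzymes PAL, C4H and 4CL supply p-coumaroyl-CoA, chalcone synthase (CHS) joins it with malonyl-CoA, and chalcone isomerase (CHI), flavanone hydroxylase (F3H) and flavonol synthase (FLS1) then form kaempferol, or quercetin where F3'H has added a hydroxyl group. Sugars are attached last. In roots flavonols are known as antioxidants and as modulators of auxin transport, and the root avoidance of ATP studied here was set in relation to auxin.

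The number of reads behind each condition was recovered from the steps between low values, and was 13483730 in ATP-treated *gpa1-2*, 11769870 in untreated *gpa1-2*, 12212944 in ATP-treated WS and 11780798 in untreated WS. Ratios of reads below were scaled as in the deposited tables, and each is given with an exact 95% interval (Clopper-Pearson, conditional on the total), which covers counting error only and leaves out the spread between plants or replicates. *GPA1* (AT2G26300), which encodes Gα and is disrupted in *gpa1-2*, was at 31.1 and 28.6 FPKM in ATP-treated and untreated *gpa1-2*, against 46.5 and 51.9 FPKM in ATP-treated and untreated WS. Its transcript was lower in both conditions of the mutant and was not absent. All 8 root marker genes had reads in each condition and summed to 625 to 792 FPKM, with *CASP1* of the endodermis highest, followed on average by *EXPA7* of root hairs and the auxin carrier *PIN2*. The 5 markers of green shoot tissue, among them *RBCS1A*, *RCA* and *LHCB3*, summed to 4.61 FPKM in ATP-treated *gpa1-2*, 13.1 FPKM in untreated *gpa1-2*, 8.09 FPKM in ATP-treated WS and 12.5 FPKM in untreated WS. Their sum was lower after ATP in both genotypes, and its part in the results was not tested. *LHCB2.1* of that list had 0 reads in untreated *gpa1-2* and at most 4 elsewhere. In bulk root RNA, fewer cells of a type and less RNA per cell cannot be told apart.

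Levels of the 10 genes were compared first. *CHS*, which makes the first flavonoid of the pathway, had the highest level in all 4 conditions, at 84.7 FPKM in ATP-treated *gpa1-2*, 44.4 FPKM in untreated *gpa1-2*, 113.5 FPKM in ATP-treated WS and 99.7 FPKM in untreated WS. *CHIL*, a relative of chalcone isomerase that is not itself an isomerase and helps CHS to form the right product, was at 45.4 FPKM in ATP-treated and 17.4 FPKM in untreated *gpa1-2*, against 49.8 FPKM in ATP-treated and 35.4 FPKM in untreated WS. *F3H* was close to it, with 37.0 and 17.6 FPKM in ATP-treated and untreated *gpa1-2* and 41.6 and 32.4 FPKM in ATP-treated and untreated WS. In each of these 3 genes the untreated *gpa1-2* value was the lowest of the 4 and the ATP-treated WS value the highest.

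*CHI*, which closes the ring of the chalcone, likewise had its lowest value in untreated *gpa1-2* and its highest in ATP-treated WS. Its level was 14.8 FPKM in ATP-treated *gpa1-2*, 6.63 FPKM in untreated *gpa1-2*, 17.5 FPKM in ATP-treated WS and 13.1 FPKM in untreated WS. *FLS1*, the main flavonol synthase, was at 24.8 and 10.7 FPKM in ATP-treated and untreated *gpa1-2*, and at 35.9 and 28.0 FPKM in ATP-treated and untreated WS. Thus *gpa1-2* was below both WS values even after ATP, as was also the case for *CHS* and *F3'H*. *4CL3*, the 4-coumarate:CoA ligase tied to flavonoid synthesis, was lower throughout, with 5.42 and 1.85 FPKM in ATP-treated and untreated *gpa1-2* and 5.36 and 3.65 FPKM in ATP-treated and untreated WS. For *4CL3* both ATP-treated values were nearly equal and the untreated values stood apart.

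*UGT78D2*, which attaches glucose to flavonols and anthocyanidins, was at 38.3 and 25.6 FPKM in ATP-treated and untreated *gpa1-2* and at 52.5 and 35.0 FPKM in ATP-treated and untreated WS. *MYB12*, the transcription factor known as the main activator of flavonol genes in roots, was at 21.9 and 17.9 FPKM in ATP-treated and untreated *gpa1-2* and at 29.5 and 21.2 FPKM in ATP-treated and untreated WS. Both were higher after ATP in each genotype and lower in *gpa1-2* under each treatment. *F3'H*, whose product directs the pathway to quercetin, was the lowest of the measured enzyme genes in every condition except untreated *gpa1-2*, where *4CL3* was lower. It was at 0.748 FPKM (15 reads) in ATP-treated *gpa1-2*, 2.04 FPKM (38 reads) in untreated *gpa1-2*, 2.27 FPKM (42 reads) in ATP-treated WS and 2.33 FPKM (42 reads) in untreated WS. Here the ATP-treated *gpa1-2* value was the low one. *MYB111*, a close relative of MYB12 known to act mostly in cotyledons and leaves, had 2 reads in ATP-treated *gpa1-2* and 0 in the other conditions, and is left out of the ratios below.

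**Figure D1:**
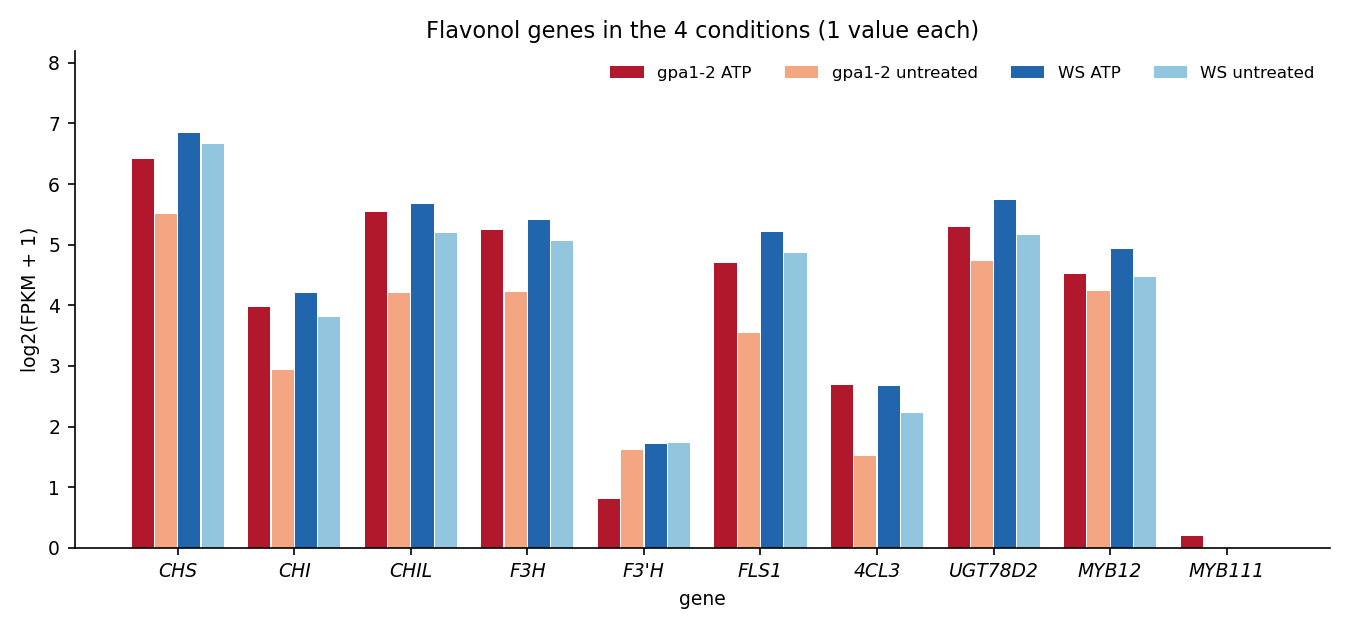
Level of each gene as log2(FPKM + 1) on the vertical axis, for the 10 genes on the horizontal axis, with bars for ATP-treated gpa1-2, untreated gpa1-2, ATP-treated WS and untreated WS from left to right and no error bars because each is a single value. The untreated gpa1-2 bar is the lowest for 8 of the genes, all but F3'H and MYB111.

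To see whether loss of Gα was accompanied by a different level of the pathway before treatment, untreated *gpa1-2* was compared with untreated WS. All 9 genes measured were lower in *gpa1-2*. The difference was taken on the log2(FPKM + 1) scale for genes that reached 1 FPKM in one or both conditions, and a difference of at least 1 was counted as a change. *FLS1* (-1.31) and *CHS* (-1.15) passed it, 2 of the 10 genes, where 1.05% of all 19826 genes passed it downward and 1.13% upward. *CHIL* followed at -0.98, *CHI* at -0.88, *F3H* at -0.85 and *4CL3* at -0.71, all short of the threshold. The median of the 9 genes was -0.85, and that of all genes was -0.02. With at least 20 reads required over both conditions, 0.254% of 18866 genes passed downward and both *FLS1* and *CHS* were among them. That filter was chosen after seeing the data, and its share is given for this comparison and direction only.

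As ratios of reads, *FLS1* in untreated *gpa1-2* was at 0.380 of its WS value (interval 0.309 to 0.464) and *CHS* at 0.445 (interval 0.405 to 0.489). The corresponding ratios were 0.503 (interval 0.410 to 0.616) for *CHIL*, 0.508 (interval 0.360 to 0.711) for *CHI*, 0.540 (interval 0.459 to 0.633) for *F3H* and 0.506 (interval 0.328 to 0.768) for *4CL3*. The intervals of the last 4 overlap one another, and that of *FLS1* overlaps that of *F3H* only at its edge. *UGT78D2* was at 0.732 (interval 0.640 to 0.837), nearer to WS than these 6 genes. For *MYB12* the ratio was 0.844 (interval 0.711 to 1.002) and for *F3'H* it was 0.877 (interval 0.551 to 1.394), and both intervals include equality. On the log2(FPKM + 1) scale 135 of all genes lay as low as *FLS1* or lower, 154 as low as *CHS* and 218 as low as *CHIL*, with *FLS1*, *CHS* and *CHIL* counted in their own numbers.

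After ATP 6 of the 9 genes were nearer to WS than before it, namely *CHS*, *CHI*, *CHIL*, *F3H*, *FLS1* and *4CL3*. None of the 10 genes differed by at least 1 between ATP-treated *gpa1-2* and ATP-treated WS, where 1.38% of 19774 genes passed downward and 1.29% upward. The median of the 9 genes measured was -0.41, against 0.01 for all genes. *4CL3* in *gpa1-2* was at 1.01 of its WS value (interval 0.768 to 1.332), *CHIL* at 0.899 (interval 0.782 to 1.032), *F3H* at 0.871 (interval 0.773 to 0.981) and *CHI* at 0.846 (interval 0.663 to 1.079). *CHS* was at 0.746 (interval 0.694 to 0.802) and *FLS1* at 0.692 (interval 0.600 to 0.797). For 6 of the 9 genes the interval lies below equality, namely *CHS*, *FLS1*, *F3H*, *UGT78D2*, *MYB12* and *F3'H*. *UGT78D2* at 0.730 (interval 0.656 to 0.812) was close to its ratio in untreated roots, and *MYB12* was at 0.744 (interval 0.642 to 0.861). *F3'H* was the furthest from WS, at 0.330 (interval 0.170 to 0.606), a difference of -0.90 on the log2(FPKM + 1) scale. With a pseudocount of 0.1 instead of 1 this difference was -1.48 and passed the threshold.

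**Figure D2:**
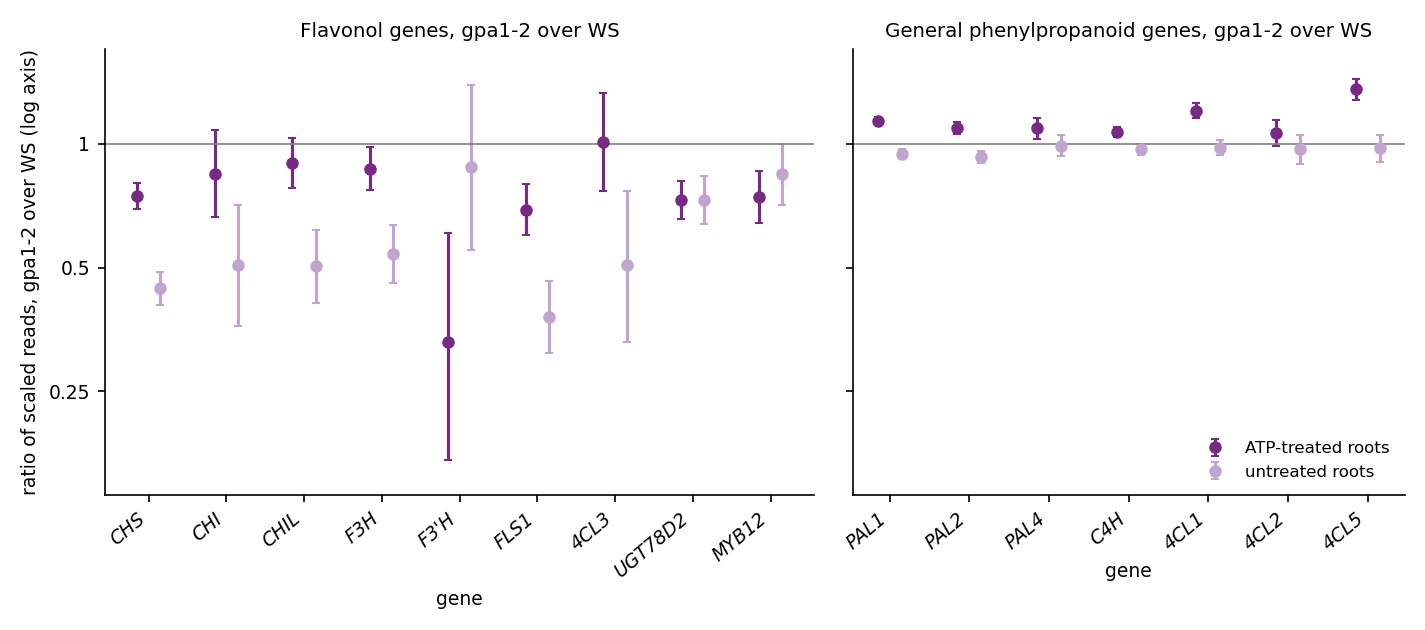
Ratio of scaled reads of gpa1-2 over WS on a log axis, with dark points for ATP-treated roots and light points for untreated roots, for 9 flavonol genes on the left and 7 general phenylpropanoid genes on the right. Bars are exact 95% counting intervals. The light points of CHS, CHI, CHIL, F3H, FLS1 and 4CL3 lie between 0.380 and 0.540, whereas those of the general phenylpropanoid genes lie close to 1.

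The response to ATP was then compared between *gpa1-2* and WS. In *gpa1-2* 5 of the 10 genes were raised by at least 1, where 3.6% of 19865 genes were raised and 3.78% lowered as much. These were *CHIL* (1.33), *4CL3* (1.17), *FLS1* (1.15), *CHI* (1.05) and *F3H* (1.04), and *CHS* was just below at 0.92. In WS none of the 10 genes was raised or lowered by at least 1, where 3.75% of 19901 genes were raised and 4.28% lowered as much. The WS responses of these 6 genes were 0.48 for *CHIL*, 0.45 for *4CL3*, 0.35 for *FLS1*, 0.39 for *CHI*, 0.35 for *F3H* and 0.19 for *CHS*. The median of the 9 genes measured was 1.04 in *gpa1-2* and 0.39 in WS, and that of all genes was 0.03 in *gpa1-2* and -0.01 in WS. The number raised in *gpa1-2* depended on values close to the threshold: it was 3 with upper-quartile scaling, which put *CHI* at 0.99 and *F3H* at 0.98, and with a pseudocount of 5 it was 1, *CHIL*.

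In ratios of reads, *4CL3* was 2.94 times as high after ATP in *gpa1-2* (interval 2.00 to 4.40) and 1.47 times in WS (interval 1.07 to 2.02). *CHIL* was 2.55 times as high in *gpa1-2* (interval 2.11 to 3.10) and 1.43 times in WS (interval 1.23 to 1.67). For *FLS1* the ratios were 2.33 in *gpa1-2* (interval 1.91 to 2.87) and 1.28 in WS (interval 1.11 to 1.48). The intervals of *CHIL* and *FLS1* in *gpa1-2* lie wholly above those in WS. The same was found for *F3H*, at 2.06 in *gpa1-2* (interval 1.77 to 2.41) and 1.28 in WS (interval 1.13 to 1.45), and for *CHS*, at 1.91 in *gpa1-2* (interval 1.74 to 2.101) and 1.14 in WS (interval 1.06 to 1.22). *CHI* was at 2.23 in *gpa1-2* (interval 1.61 to 3.11) and 1.34 in WS (interval 1.03 to 1.74).

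*UGT78D2* was 1.50 times as high after ATP in *gpa1-2* (interval 1.32 to 1.71) and 1.50 times in WS (interval 1.34 to 1.68). *MYB12* was 1.23 times as high in *gpa1-2* (interval 1.04 to 1.45) and 1.39 times in WS (interval 1.19 to 1.62). *F3'H* went the other way from its neighbours in *gpa1-2*, at 0.366 of the untreated value (interval 0.187 to 0.681), and was at 0.975 in WS (interval 0.620 to 1.532). Its response on the log2(FPKM + 1) scale was -0.80 in *gpa1-2*, which a pseudocount of 0.1 moved to -1.34, and -0.03 in WS.

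**Figure D3:**
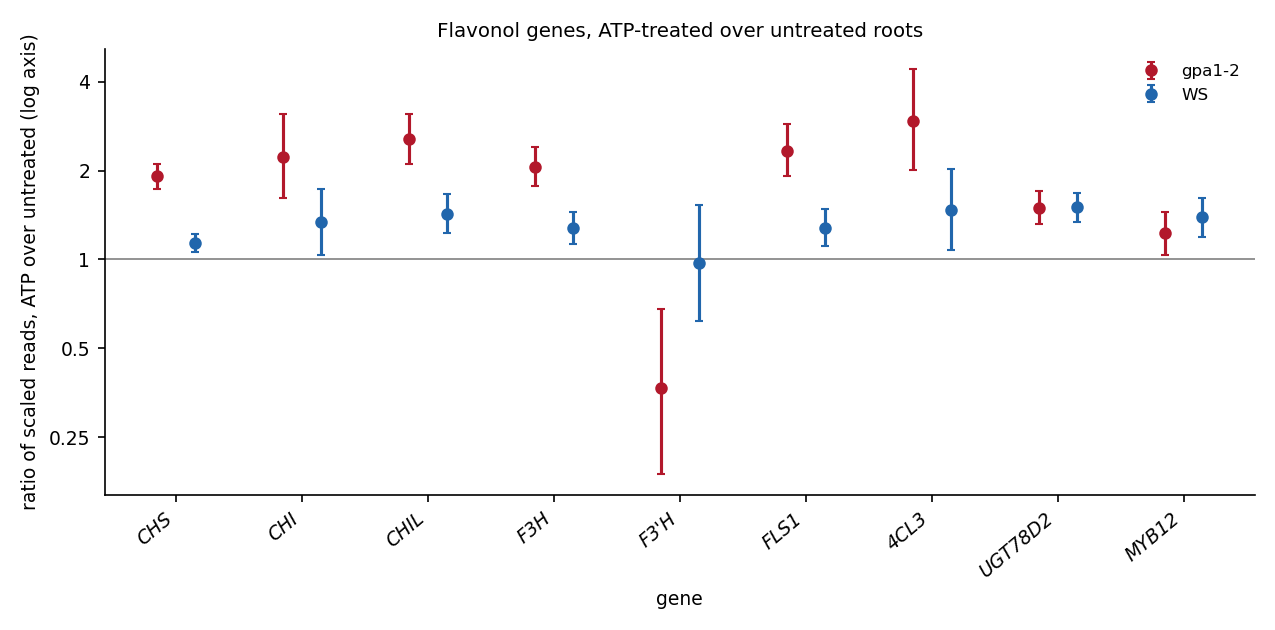
Ratio of scaled reads in ATP-treated over untreated roots on a log axis, for 9 flavonol genes, with gpa1-2 in red on the left and WS in blue on the right of each pair. Bars are exact 95% counting intervals. CHS, CHIL, F3H and FLS1 have separate intervals in the 2 genotypes, UGT78D2 is at 1.50 in both, and F3'H is below 1 in gpa1-2.

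The response in *gpa1-2* minus the response in WS did not reach 1 for any of the 10 genes on the log2(FPKM + 1) scale, where 2.8% of 20350 genes reached it upward and 3.03% downward. It was 0.85 for *CHIL*, 0.80 for *FLS1*, 0.73 for *CHS*, 0.72 for *4CL3*, 0.69 for *F3H* and 0.65 for *CHI*, then -0.01 for *UGT78D2*, -0.18 for *MYB12* and -0.77 for *F3'H*. The median of the 9 genes was 0.69, against 0.03 for all genes. Expressed as the ratio of both responses, with an approximate 95% counting interval on the log scale, *gpa1-2* over WS was 2.00 for *4CL3* (interval 1.23 to 3.24), 1.82 for *FLS1* (interval 1.43 to 2.32), 1.78 for *CHIL* (interval 1.40 to 2.27), 1.68 for *CHS* (interval 1.49 to 1.89), 1.66 for *CHI* (interval 1.11 to 2.49) and 1.61 for *F3H* (interval 1.33 to 1.96). The intervals of these 6 genes lie above equality. The same holds for *GPA1*, at 1.21 (interval 1.05 to 1.39), and for most general phenylpropanoid genes, so it is not particular to the flavonol genes. The ratio was 0.997 for *UGT78D2* (interval 0.842 to 1.181) and 0.881 for *MYB12* (interval 0.707 to 1.099), where the intervals include equality, and 0.376 for *F3'H* (interval 0.180 to 0.783), where it lies below. Whether these differences exceed the variation between replicates was not tested, since the tables hold no replicate values. The comparisons also share values: the untreated *gpa1-2* value enters both the genotype difference before ATP and the response in *gpa1-2*, so its low values appear in both. By arithmetic the difference of responses equals the genotype difference after ATP minus that before it. The 6 genes nearer to WS after ATP and the 6 with a positive difference of responses are therefore the same result.

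The proportions between genes within a condition were compared for a few pairs. *CHS* was 3.41 and 4.15 times *FLS1* by FPKM in ATP-treated and untreated *gpa1-2*, and 3.17 and 3.56 times in ATP-treated and untreated WS. *FLS1* was 33.2 and 5.22 times *F3'H* in ATP-treated and untreated *gpa1-2*, and 15.8 and 12.0 times in ATP-treated and untreated WS, so the ratio of flavonol synthase to the quercetin-directing hydroxylase was highest in ATP-treated *gpa1-2* and lowest in untreated *gpa1-2*. These ratios have no interval, and the highest rests on 15 reads of *F3'H*, at 0.748 FPKM. *CHS* was 3.86 and 2.48 times *MYB12* in ATP-treated and untreated *gpa1-2*, and 3.85 and 4.70 times in ATP-treated and untreated WS, and thus lowest relative to its activator in untreated *gpa1-2*. It was also lowest there relative to *UGT78D2*, at 1.73 times, against 2.16 to 2.85 times in the other conditions, so this was not particular to *MYB12*.

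Genes upstream of the flavonoid branch were examined in the same way. Of 8 general phenylpropanoid genes 7 were measured, and *PAL3* had at most 3 reads. Before ATP the 7 differed between *gpa1-2* and WS by -0.11 to -0.01 on the log2(FPKM + 1) scale, with a median of -0.04, against the median of -0.85 for the flavonol genes. *C4H*, which hydroxylates cinnamate, was at 599 and 403 FPKM in ATP-treated and untreated *gpa1-2* and at 560 and 416 FPKM in ATP-treated and untreated WS. *PAL1*, which removes ammonia from phenylalanine, was at 551 and 365 FPKM in ATP-treated and untreated *gpa1-2* and at 484 and 386 FPKM in ATP-treated and untreated WS. For *PAL2* the values were 288 and 245 FPKM in ATP-treated and untreated *gpa1-2* and 264 and 263 FPKM in ATP-treated and untreated WS. None of the 7 responded to ATP by at least 1, and their median response was 0.29 in *gpa1-2* and 0.16 in WS. All 7 responded more in *gpa1-2* than in WS, by a median of 0.23. Their ratios of both responses ran from 1.09 for *4CL2* (interval 0.982 to 1.218) to 1.39 for *4CL5* (interval 1.26 to 1.53). Only the interval of *4CL2* includes equality.

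Transcript levels do not show whether an *FLS* gene encodes an active flavonol synthase. Of 10 other genes, of the *FLS* family by name or for enzymes that modify flavonols, 8 were measured. *FLS5* was the only one past the threshold, raised by 1.05 in WS and at 0.78 in *gpa1-2*, with 386 and 224 FPKM in ATP-treated and untreated *gpa1-2* and 419 and 202 FPKM in ATP-treated and untreated WS. *FLS3* was at 245 and 281 FPKM in ATP-treated and untreated *gpa1-2* and at 210 and 245 FPKM in ATP-treated and untreated WS, and the methyltransferase gene *OMT1* was at 496 to 584 FPKM throughout. Another 3 genes for rhamnose transfer or supply, singled out after their values were seen, were lower in untreated *gpa1-2* than in untreated WS, at -0.34 for *UGT89C1*, -0.30 for *RHM1* and -0.30 for *UGT78D1*, the last with an interval of its read ratio that includes equality (0.408 to 1.231). The median of the 8 was 0.09 in that comparison. The anthocyanin and proanthocyanidin branch was nearly silent, with 2 of 7 genes measured and none past the threshold. *DFR*, the entry enzyme of that branch, had at most 1 read and *BAN* had 0. *UGT79B1*, at 2.18 to 3.92 FPKM, was the highest in every condition except untreated WS, where *TT19* was just above it. *TT19* was at 1.22 to 2.20 FPKM, and *UGT75C1* was below 1 FPKM in every condition.

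Among 16 genes for activators and repressors 11 were measured. *HYH*, a homologue of the light-signalling factor HY5, was raised by 1.42 in *gpa1-2* and stood at 0.93 in WS, with 56.5 and 20.5 FPKM in ATP-treated and untreated *gpa1-2* and 43.2 and 22.1 FPKM in ATP-treated and untreated WS. *HY5*, an activator of *MYB12*, was at 56.2 and 42.4 FPKM in ATP-treated and untreated *gpa1-2* and at 54.5 and 48.5 FPKM in ATP-treated and untreated WS. *WRKY23*, known to promote flavonol synthesis downstream of auxin, was raised in both genotypes, by 1.05 in *gpa1-2* and 1.51 in WS. The repressor gene *MYBL2* was lowered in both, with responses of -1.25 in *gpa1-2* and -1.03 in WS. *MYB32*, which encodes a repressor of the phenylpropanoid pathway, was at 18.0 and 17.2 FPKM in ATP-treated and untreated *gpa1-2* and at 18.3 and 7.56 FPKM in ATP-treated and untreated WS. It was therefore higher in untreated *gpa1-2* by 1.08, with a ratio of reads of 2.27 (interval 1.67 to 3.11). In ATP-treated roots the ratio was 0.983 (interval 0.784 to 1.232), and the difference of responses was -1.11. Whether *MYB32* bears on the flavonol genes was not tested. Its relatives *MYB4* and *MYB7* did not pass the threshold in any comparison, and *MYB4* was at 54.2 and 53.3 FPKM in ATP-treated and untreated *gpa1-2* against 35.5 and 45.0 FPKM in ATP-treated and untreated WS. *MYB11*, the third flavonol activator of the MYB12 group, had at most 3 reads, and *MYB75* and *TT8*, activators of anthocyanin genes, had 0.

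All 4 listed genes for F-box proteins that mark PAL or CHS for breakdown were measured. *KFB01*, whose protein acts on PAL, was raised by 1.27 in *gpa1-2* and stood at 0.72 in WS, and in untreated roots it was at 0.587 of WS in *gpa1-2* (interval 0.528 to 0.652). *KFB20* was lowered in both genotypes, with responses of -1.52 in *gpa1-2* and -1.89 in WS. *KFB-CHS*, which targets CHS, was at 18.5 and 29.3 FPKM in ATP-treated and untreated *gpa1-2* and at 18.8 and 33.1 FPKM in ATP-treated and untreated WS, short of the threshold in both.

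**Figure D4:**
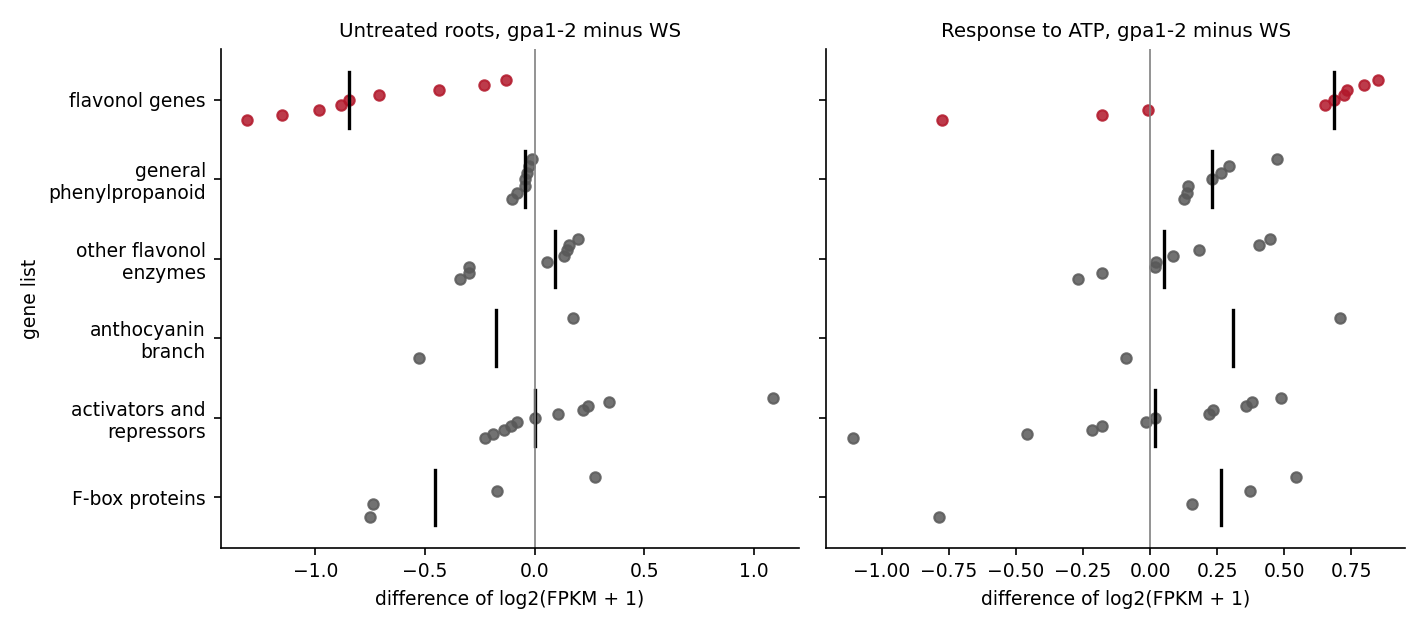
Difference of log2(FPKM + 1) on the horizontal axis for each measured gene of 6 lists, with gpa1-2 minus WS in untreated roots on the left and the response to ATP in gpa1-2 minus that in WS on the right. Points are genes and vertical bars are list medians. The flavonol genes have a median of -0.85 on the left and 0.69 on the right, and the general phenylpropanoid genes have medians of -0.04 and 0.23.

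The genes most like the flavonol genes over the 4 conditions were sought by the Euclidean distance between centred log2(FPKM + 1) profiles, over the 11510 other genes that averaged 10 FPKM or more and had 20 or more reads in each condition. The mean profile of the 9 genes was 0.10 in ATP-treated *gpa1-2*, -0.65 in untreated *gpa1-2*, 0.45 in ATP-treated WS and 0.10 in untreated WS. The nearest was AT5G10130, which the tables describe as a pollen Ole e I domain protein, at a distance of 0.053, with 102.3 and 58.7 FPKM in ATP-treated and untreated *gpa1-2* and 132.8 and 99.8 FPKM in ATP-treated and untreated WS. It was followed by *sks15* (AT4G37160, distance 0.129), AT2G27660 (0.137), AT2G32210 (0.144) and the cryptochrome gene *CRY3* (AT5G24850, 0.151). Among the flavonol genes themselves the distance to this mean was 0.211 for *F3H*, 0.215 for *CHI* and 1.13 for *F3'H*. With 4 values a gene, such closeness is a description of these values only.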

How the data were processed

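RNA came from roots of WS and *gpa1-2*, before and after ATP. The labels and methods describe Affymetrix arrays, whereas the authors deposited FPKM values and scaled counts, and the aligner, build, annotation and use of strand are not given in the sources used here. The scaled count signal was deposited as 1 column per condition, in arbitrary scaled units rather than raw counts, and low values fell on whole multiples of 0.506 to 0.563, the worth of 1 read. Within 0.1 of a read, 98.9% to 99.3% of the values up to 20 reads came out whole. Each column held a pair of slightly different steps, 0.0213% to 0.217% apart, and 1 fitted step was used, so that read numbers and intervals are approximate to that extent. Reads were used for depth and intervals. The columns are named by number only. The genotype was taken from each table's name, and the column on top of the deposited fold change was taken as ATP-treated, an assignment made with earlier results of these data known. The columns of the authors' own p-value, FDR and fold change were not used. Of each table, 13 lines had been emptied and are not analysed here.

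Differences were taken on log2(FPKM + 1) for genes that reached 1 FPKM in one or both conditions (any of the 4 for the difference of responses), and 1 or more in size was counted as a change. The pseudocount understates changes of low genes. With 1 value per condition no p-value was computed, and the model-based tests usual for replicates were not run. The calling of changes, the recovery of reads and the exact interval were tested on simulated data. The simulated columns held 1 step each, so recovery from a pair of steps was not tested. Changes were planted only in genes with at least 20 reads. Members and gene lists (lists of 8 general phenylpropanoid genes, 10 other flavonol genes, 7 anthocyanin branch genes, 16 regulators, 4 F-box genes, 8 root markers and 5 green shoot markers) were chosen with earlier results of these data known. Named from the lists were genes past the threshold with at least 20 reads and the 3 of highest mean FPKM. A few others were named after their values were seen, for their role (*PAL3*, *DFR*, *BAN*, *MYB11*, *MYB75*, *TT8*, *UGT78D1*, *UGT89C1*, *RHM1*) or for the values themselves (*4CL2*, *4CL5*, *KFB50*, *LHCB2.1*). *PIN2*, *WOX5* and *RBCS1A* among the markers also passed the threshold: *PIN2* by 1.14 in WS, *WOX5* by 2.97 in *gpa1-2* and 3.81 in WS, and *RBCS1A* by -2.11 in *gpa1-2* and -1.25 in WS. In the reference gene table *CHS* overlaps AT5G13940, with at most 1 read, and *F3H* overlaps AT3G51238, with at most 7. Scripts ran on Python 3.11.15 with scipy 1.17.1, pandas 2.3.3, numpy 2.4.6 and, for plots, matplotlib 3.10.9.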

Additional observations from a re-analysis of the deposited data

How the results depend on the processing

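The alternatives were pseudocounts of 0.1 and 5, upper-quartile scaling, centring on the median, no filter, quantile normalization, a minimum of 10 FPKM, recovered reads divided by the column total, a threshold of 2 and, chosen after seeing the data, a minimum of 20 reads. The filters and the threshold cannot move the value of a single gene. Of 270 values of single flavonol genes under the other alternatives, 3 changed sign, all of them *4CL3* between ATP-treated *gpa1-2* and ATP-treated WS, a difference of 0.01. The furthest move was that of the response of *F3'H* in *gpa1-2*, -0.80, which was -1.51 with recovered reads and -0.29 with a pseudocount of 5, and the response of *4CL3* in *gpa1-2*, 1.17, was 0.61 with a pseudocount of 5. The number of flavonol genes raised by ATP in *gpa1-2*, 5, was 1 with a pseudocount of 5, 3 with upper-quartile scaling, 4 with the minimum of 10 FPKM, quantile normalization or recovered reads, and 0 with a threshold of 2. The number lowered by ATP in *gpa1-2*, 0, was 1 with a pseudocount of 0.1 and 1 with recovered reads, *F3'H* in both. *F3'H* likewise gave 1 in place of 0 with a pseudocount of 0.1 and with recovered reads, for genes lower in ATP-treated *gpa1-2* than in ATP-treated WS and for a lower response in *gpa1-2* than in WS. The number lower in untreated *gpa1-2* than in untreated WS, 2, was 3 with a pseudocount of 0.1, which put *CHIL* at -1.02, and 0 with a threshold of 2. No scaling moved the median of all genes by over 0.1. No paired analysis was possible because the tables hold 1 value per condition, and for the same reason no replicate could be left out. Depth limits *F3'H*, with 15 reads in ATP-treated *gpa1-2*, and *MYB111*, with at most 2.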
